A study of Homo sapiens with 2 samples.

Results

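The plakins are a family of very large cytolinkers, proteins that tie intermediate filaments, actin and microtubules to one another and to cell junctions. The 7 human plakin genes followed here are PLEC, PPL, EVPL, EPPK1, DSP, DST and MACF1. They were taken by gene symbol from the deposited table of 10836 protein-coding rows, and each matched 1 row. The study sequenced RNA that was immunoprecipitated with CNBP (CNBP RIP), where CNBP is a nucleic acid-binding protein with zinc fingers, and input RNA. Both libraries came from HCT116, an established line of human colon carcinoma cells. For the RIP the study describes ultraviolet irradiation of the cells, then homogenizing and sonication, and names no drug or knockdown. Each group held 1 library. Differences therefore have no replicate check, and nothing was tested.

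Plakins share modular building blocks. Most carry a plakin domain near the amino terminus, the epithelial members end in plakin repeats or a related linker that holds keratin filaments, and the spectraplakins DST and MACF1 combine actin-binding and microtubule-binding ends with a long row of spectrin repeats. In simple epithelia such as the colon, DSP anchors keratin at desmosomes and PLEC links keratin to integrins at the basal side. The mRNAs that encode these proteins are long.

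Values are FPKM as deposited, which scale fragments by transcript length and by library size, so levels of different genes are compared per length. The log2 ratio is log2(RIP FPKM + 1) minus log2(input FPKM + 1). The family was chosen by these ratios, PLEC having the highest of the table, so they are given as a description and support no statement about chance. The sum of FPKM was 109684 in the RIP, against 214387 in the input, and the number of reads behind them is unknown. Of 10 colon epithelial marker genes, 9 were in the table, with summed levels of 762 FPKM in the RIP and 1560 FPKM in the input. Of these 9, the RIP was lower by 4-fold or more for 3, and CLDN3, listed at 0 in the input, was higher, with 8.11 FPKM in the RIP. EPCAM had 21.2 FPKM in the RIP and 109 FPKM in the input, while CDH1 had 3.88 FPKM in the RIP and 0.415 FPKM in the input. Of 10 markers of blood, stromal and endothelial cells, the table held COL1A1 and had no row for the others. COL1A1 was at 4.92 FPKM in the RIP and 0.199 FPKM in the input. No library from a control antibody was analysed here, so recovery of these mRNAs without CNBP is unknown.

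All 7 plakin mRNAs were at least 4-fold higher in the CNBP RIP than in the input by the FPKM + 1 ratio, beside 12.5% of all rows. None was at least 4-fold lower, which held for 13.5% of all rows. The median level of the family was 62.8 FPKM in the RIP and 1.0 FPKM in the input, and its median log2 ratio was 5.53, or 5.08 over the 6 genes above 0 in both libraries, with a median of 0.28 over all rows. Every member had over 1 FPKM in the RIP, whereas 4 members (PLEC, EVPL, PPL and DSP) had at least 1 FPKM in the input. Each also passed a minimum mean of 1 FPKM over both libraries, which 8509 rows did, but for 6 of the 7, PLEC being the exception, the RIP value was needed to pass. Among these 8509 genes 15.9% were at least 4-fold higher, and 17.2% were lower by that factor. Summed over the family, 761 FPKM in the RIP stood against 6.43 FPKM in the input. A total of 27 genes in the table had a log2 ratio of at least 5, and 4 of these were plakins.

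**Figure D1:**
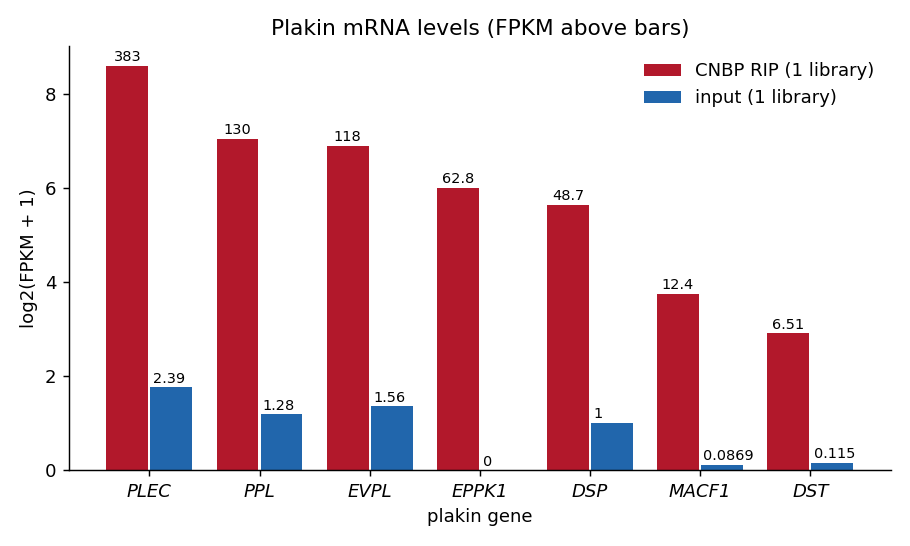
Levels of the 7 plakin genes as log2(FPKM + 1), with the CNBP RIP library in red, left of the input library in blue, and the FPKM printed above each bar. RIP levels spread between 6.51 FPKM (DST) and 383 FPKM (PLEC), and no input level is above 2.39 FPKM.

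PLEC encodes plectin, which links keratin filaments to hemidesmosomes, actin and the nuclear envelope. Its row (ENSG00000178209.14_2) covers chromosome 8 from 144989315 to 145050902 on the minus strand of hg19. PLEC had 383 FPKM in the RIP and 2.39 FPKM in the input. In the RIP this was rank 16 of all rows, and in the input rank 4997. Thus PLEC was among the most abundant mRNAs per length in the RIP and close to the middle of the table in the input. On plain FPKM, without the added 1, the ratio was 160-fold. In the order of FPKM + 1 ratios PLEC came first at 6.82, followed by DLG5, a scaffold gene of cell polarity, at 6.10. By the plain ratio it was at rank 28 of the 7961 genes with a mean of at least 1 FPKM and no value of 0, so the first place belongs to the FPKM + 1 scale. PLEC was 2.94 times PPL, the plakin next to it in level, in the RIP and 1.87 times PPL in the input.

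EPPK1, which encodes epiplakin, a keratin-binding protein made almost wholly of plakin repeats, lies next to PLEC. Its row (ENSG00000261150.2_1) covers chromosome 8 from 144939497 to 144952632, also on the minus strand of hg19, and no other row of the table lies in the 36682 bases between both genes. For EPPK1 the RIP held 62.8 FPKM, while the input value is listed at 0, which leaves it without a fold. Several of its repeats are near-identical to one another, and the sources used here do not give how reads that fit more than 1 place were counted, so its level is uncertain in both libraries. In the RIP it lay at rank 296 of all rows. The genes on the outer sides of this pair were much lower in the RIP. NRBP2 had 3.0 FPKM in the RIP and 0.535 FPKM in the input, and PARP10, which lies 418 bases from PLEC, had 1.83 FPKM in the RIP and 0.107 FPKM in the input.

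PPL and EVPL encode periplakin and envoplakin, which pair with each other and, in stratified epithelia, form part of the cornified envelope scaffold. PPL (ENSG00000118898.15_2, chromosome 16, 4932508 to 5010742, minus strand) had 130 FPKM in the RIP and 1.28 FPKM in the input, a plain ratio of 102-fold. EVPL (ENSG00000167880.7_2, chromosome 17, 74000583 to 74023533, minus strand) had 118 FPKM in the RIP and 1.56 FPKM in the input, a plain ratio of 75.4-fold. The partners therefore stood close to each other in both libraries, PPL being 1.11 times EVPL in the RIP, and no error can be set beside that difference. Their RIP levels lay at ranks 101 and 116 of all rows, and their input levels at ranks 6342 and 5882. The row of TEN1-CDK3, on the opposite strand, overlaps the EVPL locus and had 3.12 FPKM in the RIP and 0.211 FPKM in the input. The library kit kept strand, but the sources used here do not give whether counting used it.

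DSP encodes desmoplakin, the plakin that connects desmosomes with keratin filaments and that desmosomes depend on. Its row (ENSG00000096696.13_1) covers chromosome 6 from 7541808 to 7586950 on the plus strand. DSP had 48.7 FPKM in the RIP and 1.0 FPKM in the input, a log2 ratio of 4.63 and a plain ratio of 48.6-fold. Its RIP level was below that of each member described so far and was 7.86 times lower than that of PLEC. Even so, DSP lay at rank 427 of all rows in the RIP and at rank 6920 in the input.

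The spectraplakins DST and MACF1 encode dystonin and the microtubule-actin crosslinking factor, and they were the least abundant members in the RIP. DST (ENSG00000151914.19_2, chromosome 6, 56322785 to 56819426, minus strand) had 6.51 FPKM in the RIP and 0.115 FPKM in the input. MACF1 (ENSG00000127603.23_2, chromosome 1, 39546988 to 39952849, plus strand) had 12.4 FPKM in the RIP and 0.0869 FPKM in the input. Both were thus near the bottom of the table in the input, at ranks 10047 and 10218, and in the upper part of it in the RIP, at ranks 3087 and 1824. The log2 ratios were 2.75 for DST and 3.62 for MACF1, the lowest of the family. On plain FPKM the ratios were 56.6-fold for DST and 142-fold for MACF1. So MACF1 was last but one by the FPKM + 1 ratio and second to PLEC by the plain ratio among the 6 members above 0 in both libraries. By plain ratio MACF1 was at rank 32 and DST at rank 159 of the 7961 genes, with PPL at 53, EVPL at 104 and DSP at 196. How many fragments lie behind the low input values of both spectraplakins is unknown, so no counting interval can be given.

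CNBP is known to prefer G-rich sites with a GGAG core, and the stretch at a MACF1 transcript start that holds these letters is printed here to show them in place. RefSeq sequences around transcript starts (build GRCh38.p14, which differs from that of the table) were at hand for 3 members, with 7 starts for DSP, DST and MACF1 together, and the first 50 transcribed bases were searched on the transcribed strand. GGAG was found in 1 of the 7, start number 3 of MACF1 in that table, at base 47. The other MACF1 starts held none, and levels given per gene do not tell which start the MACF1 mRNA used. Over all 35116 starts of that RefSeq table, 36.6% held it in the same window. The capitals mark the motif in the last 30 bases of the window, chr1:39409093-39409122 on the plus strand.
MACF1, start number 3, bases 21 to 50: cgagctagcgggtcgcgctgcgcgggGGAG
A match is a description of these letters and no site of binding, and the rest of the mRNAs was not searched.

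Across the 6 members above 0 in both libraries, plain ratios differed by 3.29 times, whereas RIP levels differed by 58.8 times between PLEC and DST. The order by RIP level was PLEC, PPL, EVPL, EPPK1, DSP, MACF1 and DST. The order by input level was PLEC, EVPL, PPL, DSP, DST, MACF1 and EPPK1, so PLEC led in both libraries and EPPK1, in the middle of the family in the RIP, was last in the input. Since each level came from 1 library, no neighbours in either order can be said to differ beyond their spread. The pseudocount decided how far the spectraplakins stood from the others. With a pseudocount of 0.1 the log2 ratio of MACF1 was 6.06, above that of DSP at 5.47, and with a pseudocount of 5 it was 1.77, below DSP at 3.16. DST was at 4.94 with 0.1 and at 1.17 with 5. With 5, MACF1 and DST were both under 4-fold.

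**Figure D2:**
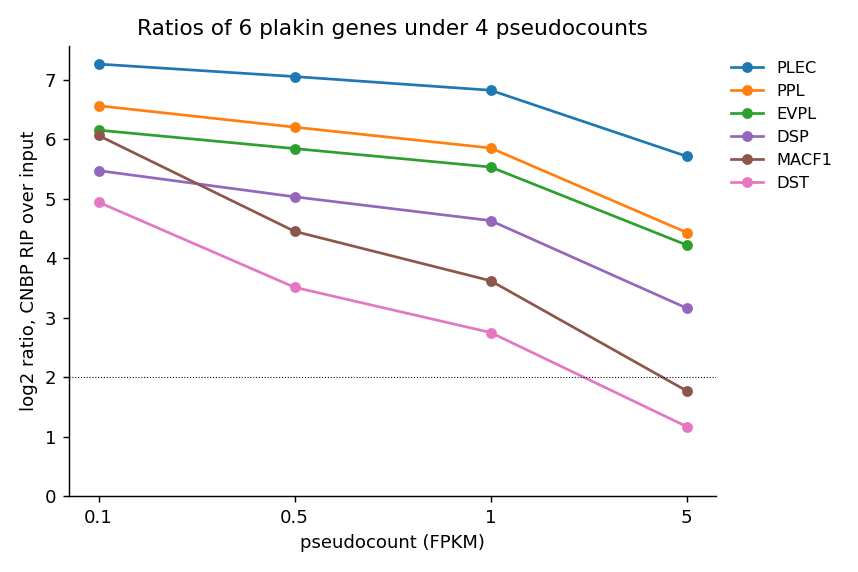
Log2 ratio of CNBP RIP over input for the 6 plakin genes above 0 in both libraries, under 4 pseudocounts in FPKM on an axis of equal steps, with a dotted line at 4-fold. MACF1 lies above DSP at 0.1 (6.06 and 5.47) and below it at 5 (1.77 and 3.16), while PLEC is highest throughout.

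**Figure D3:**
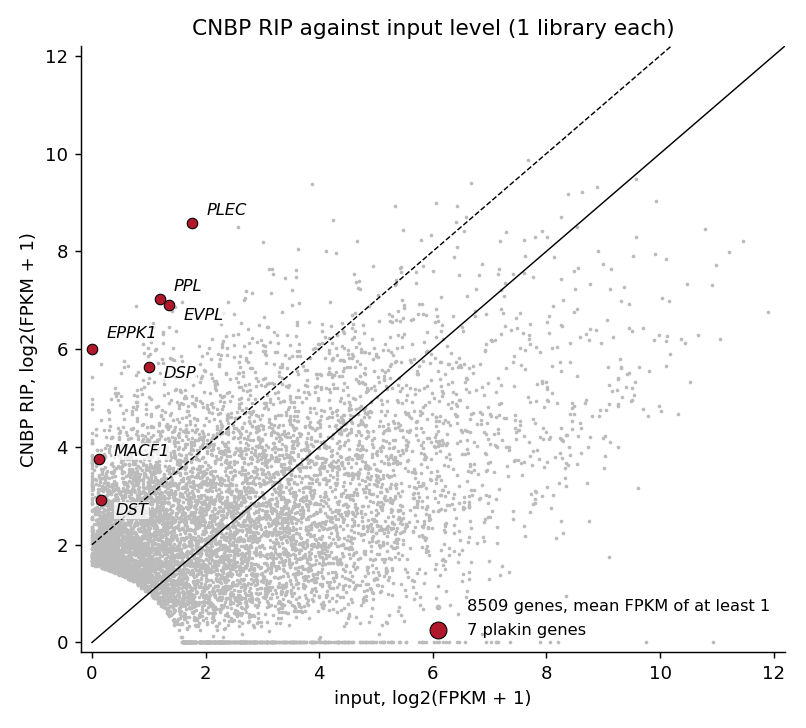
Each of 8509 genes (grey) and the 7 plakin genes (red) by input level on the horizontal axis and CNBP RIP level on the vertical axis, both log2(FPKM + 1). The solid line marks equal values and the dashed line 4-fold on the FPKM + 1 scale, and the plakins lie above the dashed line, at input levels of at most 2.39 FPKM.

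The size of an mRNA moved with the ratio over the rows of the table, and plakin mRNAs are long. The table gives no mRNA length, so exonic lengths were recovered from the decimals of the FPKM values for 9624 rows. A recovered length can be a divisor of the true one, so the shorter classes also hold genes with longer mRNAs. Among genes outside the family the median log2 ratio was -0.73 for lengths below 1500 bases and 1.40 for lengths of 12000 bases and more. The libraries differed in this. The median RIP level was 2.18 FPKM in the shortest class and 2.64 FPKM in the longest, while the median input level was 3.32 FPKM in the shortest and 0.263 FPKM in the longest. The table lists a row by the higher of both FPKM values, so many rows of the longest class are listed through the RIP alone. Such rows have a ratio above 0 by selection. The part of this selection in the trend with length was not tested. Rows of 12000 bases and more were at least 4-fold higher in 33.9% of cases, against 5.96% below 1500 bases.

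PLEC, EVPL, DSP and MACF1 were set beside genes of like length, as a description, since the family was chosen by these ratios. The lengths were 16991 bases for PLEC, 7510 for EVPL, 10093 for DSP and 21551 for MACF1, each of which may be a divisor of the true length. For PPL the recovered 2562 bases are too short for its coding sequence and were left out of the length comparisons, and no length came out for EPPK1 and DST. Of 1709 genes outside the family with a recovered 7510 bases or more, taken from all rows, 24.4% were at least 4-fold higher. Their medians were 2.81 FPKM in the RIP and 0.578 FPKM in the input. Among these long genes 1 had a ratio at or above that of EVPL, namely DLG5, and 13 at or above that of DSP. Long genes whose recovered length was missing or too short are outside these counts. For example, MYH9 (no length) had a ratio of 5.93 and PRKDC (1927 bases recovered) 5.78, both above EVPL at 5.53. FASN, the fatty acid synthase gene, was the 1 gene of the 1709 whose RIP level reached that of PLEC, and 39 of them reached that of DSP. In the input 308 of them had at least the level of PLEC. The 200 genes nearest in length to each member were taken from those with a mean of at least 1 FPKM. Their median input level was 0.41 FPKM for PLEC and 0.421 FPKM for MACF1, so many of them passed that minimum through the RIP. The log2 ratio exceeded their median by 4.85 for PLEC, 4.51 for EVPL, 3.10 for DSP and 1.64 for MACF1. Of these 200, 48.5% were at least 4-fold higher for PLEC, 18.5% for EVPL, 32% for DSP and 49% for MACF1. None of the 200 had a ratio at or above that of PLEC or of EVPL, 2 reached DSP and 19 reached MACF1. The part of length in the ratios of the family was not tested.

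**Figure D4:**
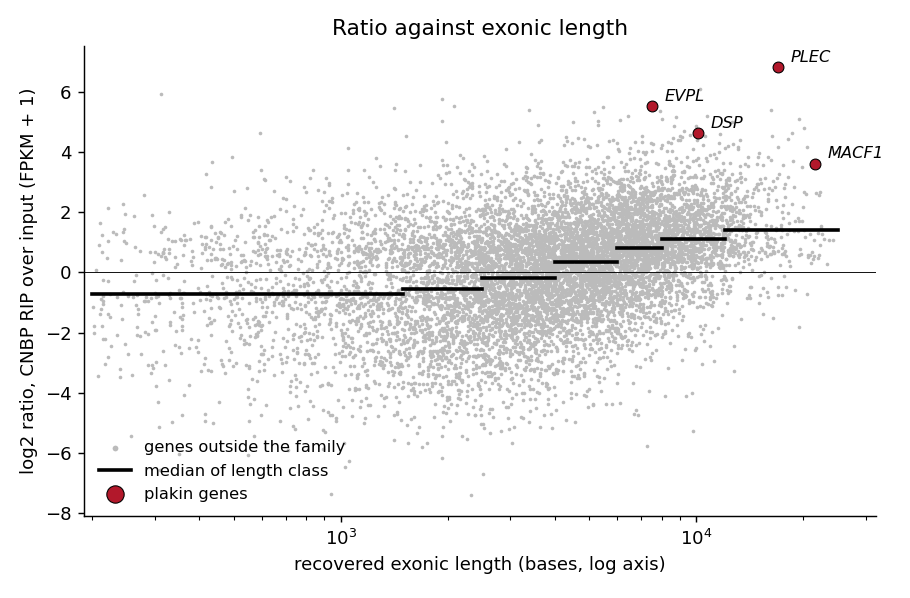
Log2 ratio of CNBP RIP over input against recovered exonic length in bases (log axis) for genes outside the family (grey) and the plakins PLEC, EVPL, DSP and MACF1 (red), with the median of each length class as a black bar. The class medians run between -0.73 and 1.40, and PLEC (6.82), EVPL (5.53), DSP (4.63) and MACF1 (3.62) lie above them.

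FPKM times the exonic length in kilobases gives FPM, the fragments of a gene scaled to library size alone, which shows how much of each library a gene took up. PLEC took up 6504 FPM in the RIP, against 40.6 FPM in the input. EVPL had 883 FPM in the RIP, against 11.7 FPM in the input. DSP had 491 FPM in the RIP, against 10.1 FPM in the input. They are lower limits where the recovered length is a divisor. Summed over all rows with a length, the FPM came to 385508 in the RIP, against 385002 in the input. Rows without a length are left out and divisor lengths lower these sums, so they do not describe whole libraries. The FPKM sum of the input over all rows was 1.95 times that of the RIP.

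The genes beside the plakins on the chromosome were then read. Apart from PLEC and EPPK1, which neighbour each other, each member has a neighbour outside the family on either side, which with the outer neighbours of that pair makes 12 genes. Of these 2 were at least 4-fold higher, beside 12.5% of all rows, namely UBN1 beside PPL (2.80, above DST at 2.75) and SNRNP48 beside DSP (2.43). The median log2 ratio of the 12 was 0.68, and they ranged down to NDUFS5 beside MACF1, at -5.16, with 27.5 FPKM in the RIP and 1020 FPKM in the input.

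The genes outside the family nearest to each plakin in both levels were listed, by distance in the plane of log2(FPKM + 1) over the 2 libraries. The nearest to PLEC was MYH9, a non-muscle myosin heavy chain gene, at a distance of 0.81, with 359 FPKM in the RIP and 4.91 FPKM in the input, followed by AKAP12, a kinase anchor gene, at 1.31. PPL and EVPL had the same nearest genes outside the family, the protocadherin FAT1 (0.31 from PPL and 0.10 from EVPL) and the dynein heavy chain DYNC1H1 (0.34 and 0.13). Close to EPPK1 lay the histone gene HIST2H4A (0.06), which has a near-identical copy and an uncertain level, and the cytokine gene GDF15 (0.35). DSP lay beside MYH10, another non-muscle myosin gene (0.08), and CDC42BPG, a kinase gene (0.18). DST lay beside JMY, an actin nucleation gene (0.04), and CLIP1 (0.05), and MACF1 beside RNF213 (0.06) and SOCS7 (0.09). With 2 libraries such nearness says only that both levels were alike.

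The mRNAs of proteins that act with plakins had lower median ratios than the family, which was itself chosen by these ratios. Lengths were not matched in this comparison. These 6 lists of partners, taken from textbook roles, were described by counts and medians, over members with a mean of at least 1 FPKM and beside the 15.9% of such genes at least 4-fold higher and their median log2 ratio of 0.22. The intermediate filament genes split. The keratin genes KRT18 (199 FPKM in the RIP and 564 FPKM in the input) and KRT8 (160 FPKM in the RIP and 433 FPKM in the input), whose filaments plectin, epiplakin and desmoplakin hold, were the lowest of 11 genes, with ratios of -1.50 and -1.43. The highest were the lamin gene LMNB2 at 5.49 and NES, which encodes the large filament protein nestin, at 4.59. Over the list 4 were at least 4-fold higher, none was at least 4-fold lower, and the median was -0.04, which turned to 0.92 when both libraries were rescaled to the mean of their FPKM sums. KRT8 and KRT18 have many near-identical pseudogene copies, so their levels are uncertain. KRT19 lay nearly level, with 360 FPKM in the RIP and 371 FPKM in the input.

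Among the junction partners, the desmosome genes had lower ratios than DSP. Of 6 desmosome genes with a mean of at least 1 FPKM, DSG2, a desmosomal cadherin gene, was at least 4-fold higher (2.50), with 10.8 FPKM in the RIP and 1.08 FPKM in the input. PKP3, a plakophilin gene, followed at 1.94, and the lowest were JUP, the plakoglobin gene, at 1.41 and PERP at -0.41, so that the list had a median of 1.55. DSP itself was at 4.63. Of 5 hemidesmosome genes, 3 were at least 4-fold higher and 1 was at least 4-fold lower, with a median of 2.08. ITGB4, the integrin chain that plectin binds, led at 3.37 with 118 FPKM in the RIP and 10.5 FPKM in the input, followed by its partner ITGA6 at 2.56. The lowest was CD151, a small tetraspanin gene, at -2.16, with 15.9 FPKM in the RIP and 74.7 FPKM in the input. COL17A1 and LAMA3 had no row. The cornified envelope list was left with KAZN, at 3.42 FPKM in the RIP and 0.163 FPKM in the input, and CSTA, listed at 0 in the RIP and at 13.7 FPKM in the input.

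For the spectraplakins, lists of spectrin repeat and microtubule genes were taken. Of 8 genes for other proteins with spectrin repeats, 6 were at least 4-fold higher and each ratio was above 0, with a median of 2.97. With a pseudocount of 5 the count was 3 of the 8, and with at least 1 FPKM in both libraries 2 genes were left, ACTN4 and ACTN1, of which 1 was at least 4-fold higher. The spectrin gene SPTBN1 led (33.2 FPKM in the RIP and 0.321 FPKM in the input, log2 ratio 4.70), while UTRN, the utrophin gene (1.62), and ACTN1, an alpha-actinin gene (0.80), were lowest. Of 10 genes of microtubule plus ends, where MACF1 and DST act, 6 were at least 4-fold higher, or 3 with a pseudocount of 5, with a median of 2.06. DCTN1, a dynactin gene (4.25), and CLIP2 (4.13) were highest, and MAPRE3 (-1.07) and GAS2L1 (-1.52) lowest.

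**Figure D5:**
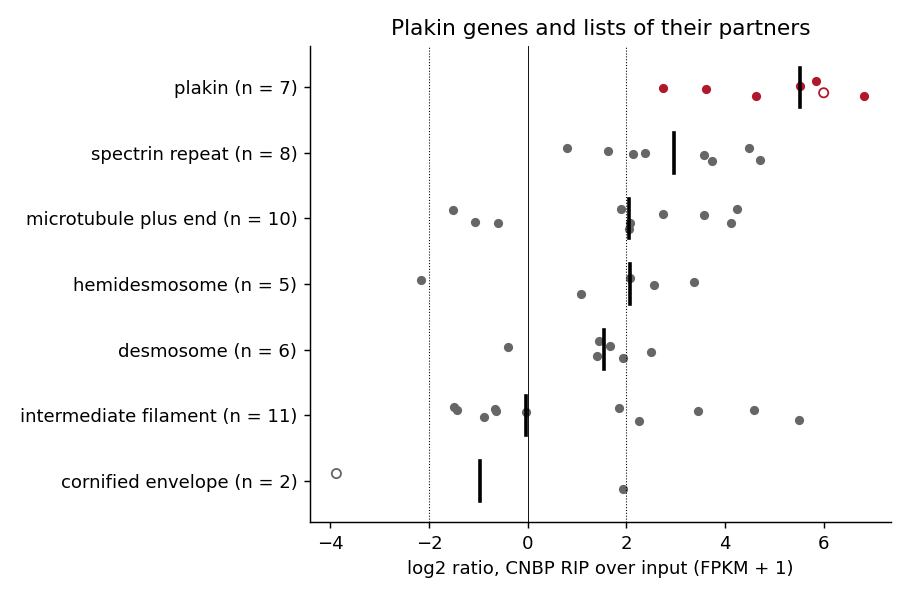
Log2 ratio of CNBP RIP over input (FPKM + 1) for the 7 plakin genes (red) and 6 lists of partner genes (grey) with a mean of at least 1 FPKM, 1 point a gene, with the list median as a bar, dotted lines at 4-fold and open circles for genes listed at 0 in 1 library, whose place the pseudocount sets. The plakin median is 5.53, and the partner medians run between 2.97 (spectrin repeat) and -0.98 (cornified envelope, 2 genes).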

How the data were processed

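The authors deposited FPKM per gene for 1 CNBP RIP and 1 input library of HCT116 cells. Build hg19 and the tools StringTie, HISAT2, FastQC and cutadapt stand in the submitters' processing notes, which state neither version nor purpose. The sources used here do not give how multiply matched reads and strand were handled. The deposited table lists protein-coding rows whose higher FPKM is at least 0.500. Samples were grouped by their titles. Ratios used a pseudocount of 1, and 4-fold (a log2 ratio of 2) is the size rule of the study. There was 1 library per group, so no test was run, and the depth is unknown.

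The gene values behaved as sums of transcript FPKM (6 decimals) times transcript length over exonic length. The smallest length up to 25000 bases that leaves at most 6 decimals in both libraries was kept if it exceeded 200 and each other solution was its multiple. This gave 88.8% of rows, none above the span of its locus. The recovery was tested on simulated data, where a length came out for 98.9% of genes, more than the 88.8% of rows here. Of those lengths 72.7% equalled the true one and the others were divisors of it. Whether the deposited FPKM follow the sums given above was not tested by this. The rounding tolerance (15 significant digits plus the error of double precision) was set after a first version, which read the displayed decimals, had given no length for PLEC.

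The members and lists were chosen with earlier results of these data known. Named genes were the 7 plakins, the 2 highest and 2 lowest of each partner list (a mean of at least 1 FPKM), the 2 genes nearest to each plakin and the neighbour of PLEC in the order of ratios. Some genes that this rule names are not reported here. Others named (flanking genes, FASN, KRT19, ACTN4, EPCAM, CDH1, CLDN3, COL1A1) were chosen after their values were seen. Alternatives were other pseudocounts (0.1, 0.5, 5), rescaling to the mean of the FPKM sums, centring, other filters, summing of rows that share a symbol, subtraction of the median ratio over the 200 genes closest in span and, added after seeing the data, over the 200 closest in recovered length. Work was done in Python 3.11.15 with pandas 2.3.3 and NumPy 2.4.6.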

Additional observations from a re-analysis of the deposited data

How the results depend on the processing

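The log2 ratios of the 7 plakin genes stayed above 0 under each alternative run. Their median of 5.53 was 6.15 with a pseudocount of 0.1, 5.84 with 0.5, 3.76 with 5, 6.33 after rescaling both libraries to the mean of their FPKM sums, 5.31 after centring on the median gene and 4.74 after subtraction of the median ratio over genes closest in span. All 7 were at least 4-fold higher with each pseudocount and scaling run except a pseudocount of 5, where 5 were. DST, at 1.18, was also under a log2 ratio of 2 after the subtraction by span. With at least 1 FPKM in both libraries 4 members were left, each at least 4-fold higher, DSP being close to that minimum. PLEC was at rank 1 by ratio with a pseudocount of 1 or 5 and at rank 13 of 8509 with 0.1. The share of all rows at least 4-fold higher was 22.6% after rescaling, 27.9% with a pseudocount of 0.1 and 3.09% with 5. The intermediate filament count was 4 or 5 under each alternative run. The desmosome count of 1 was 3 with a pseudocount of 0.1, 2 with 0.5, 0 with 5 and 4 after rescaling. The hemidesmosome count of 3 was 1 with 5, and 2 after centring and with at least 1 FPKM in both libraries. The cornified envelope count of 0 was 1 with 0.1, with 0.5 and after rescaling. With a pseudocount of 5 the microtubule plus end and spectrin repeat counts of 6 were 3 each, and after centring they were 4 and 5. Both were 7 with pseudocounts of 0.1 and 0.5 and after rescaling. With at least 1 FPKM in both libraries the microtubule plus end count was 4. Under that filter 2 spectrin repeat genes were left (ACTN4 and ACTN1), 1 of them at least 4-fold higher. The median of the intermediate filament genes, -0.04, turned to 0.92 after rescaling and to 1.10 with at least 1 FPKM in both libraries. The cause of these shifts was not tested. No paired analysis was possible because each group held 1 library. The ratios of DST and MACF1 moved most with the pseudocount among the 6 members above 0 in both libraries. After subtraction of the median ratio over genes closest in recovered length, an alternative added after seeing the data, 4.85 was left for PLEC and 1.64, under a log2 ratio of 2, for MACF1. Without counts no interval can be given.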
